A study of Homo sapiens with 12 samples.

Results

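Aminoacyl-tRNA synthetases are the enzymes that join each amino acid to its transfer RNA, and their transcripts were followed in C4-2 cells, a prostate cancer cell line, after knockdown of CHKA. The genes were taken by symbol from a list of 35, with 19 enzymes of the cytosol and 16 of the mitochondrion. All 35 were found by Ensembl identifier among the 54127 in the count files, and all 35 passed the expression filter and were among the 14501 genes tested. The cells were grown in RPMI medium with 10% fetal bovine serum and reverse transfected with Lipofectamine RNAiMAX, which the groups share. In the 6 siCHKA samples the transfected RNA was a pool of siRNAs at 50 nM against CHKA, choline kinase alpha, which carries out the opening step of the Kennedy pathway of phosphatidylcholine synthesis. In the 6 siNT samples it was a nontargeting siRNA, also at 50 nM. The comparison asks how lowering CHKA changed the transcriptome in this single line, which limits the groups as a model, and no untransfected cells were among the 12 samples used here.

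Cytosolic and mitochondrial protein synthesis use separate sets of synthetases, nearly all of them encoded by nuclear genes in pairs such as IARS1 and IARS2, the isoleucine enzymes. A few genes, among them GARS1 and KARS1, give rise to enzymes of both compartments, and they are counted here with the cytosolic members. In the cytosol, several synthetases assemble with scaffold proteins into a multisynthetase complex, and phenylalanyl-tRNA synthetase is a tetramer of FARSA and FARSB chains. Many cytosolic synthetase genes are known targets of ATF4, a transcription factor that is made when amino acids run short and that binds, with C/EBP partners, to the amino acid response element.

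That element, searched as TGATGNAA on both strands, was present in the RefSeq promoters (GRCh38.p14, 250 bases before to 50 after the start) of 7 of the 16 cytosolic members in the promoter table. It was present in 1 of 14 mitochondrial members and in 4.46% of all 27305 genes in that table. The stretches around these 8 matches are shown because the cytosolic members that hold them include those with the largest falls. Each reads 5′ to 3′ along the strand of the gene, with the matched letters in capitals.
IARS1 (chr9:92293677-92293736, minus strand): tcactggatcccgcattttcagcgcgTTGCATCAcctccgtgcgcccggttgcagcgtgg
NARS1 (chr18:57621789-57621848, minus strand): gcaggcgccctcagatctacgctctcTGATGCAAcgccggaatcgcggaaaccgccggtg
AARS1 (chr16:70289660-70289719, minus strand): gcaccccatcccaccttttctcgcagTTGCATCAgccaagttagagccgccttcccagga
GARS1 (chr7:30594819-30594878, plus strand): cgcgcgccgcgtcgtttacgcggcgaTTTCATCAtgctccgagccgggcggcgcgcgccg
MARS1 (chr12:57488038-57488097, plus strand): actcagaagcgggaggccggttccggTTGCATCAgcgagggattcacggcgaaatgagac
TARS1 (chr5:33440941-33441000, plus strand): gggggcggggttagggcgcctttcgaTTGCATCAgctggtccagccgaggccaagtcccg
CARS1 (chr11:3057392-3057451, minus strand): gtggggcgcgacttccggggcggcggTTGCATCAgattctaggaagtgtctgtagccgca
YARS2 (chr12:32756061-32756120, minus strand): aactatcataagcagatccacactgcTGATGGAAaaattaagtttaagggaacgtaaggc
In 6 of the 8 the match lay close to the start site, between base -33 in GARS1 and base 14 in NARS1, counted from the start. In AARS1 it began at base -187 and in YARS2 at base -197. The E-box CACGTG, which MYC and related factors bind, does not overlap TGATGNAA and was found in the promoters of IARS1, MARS2, CARS2 and EARS2, against 8.77% of all genes. A match describes the letters only.

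Depth and the behaviour of the libraries bear on every value below. Reads on genes numbered 12158361 to 20670479 in siCHKA samples and 10685184 to 24246055 in siNT samples, so that 3 counts correspond to 0.124 to 0.281 CPM. CHKA (ENSG00000110721) was at 1.91 to 4.67 CPM in siCHKA and 36.7 to 43.3 CPM in siNT samples, which matches the labels. The siCHKA samples fell into 2 sets. Replicates 2, 4 and 6 differed from each other by a chi-square of 2.25 to 3.76 per degree of freedom, and from replicates 1, 3 and 5 by 11.3 to 22.2. Replicates 1, 3 and 5 were a looser set, differing from each other by 3.725 to 8.56. Pairs of siNT samples differed by 2.36 to 27.7. Values are therefore given without each set where that matters. All 7 prostate epithelial markers examined were expressed, 4 of them lower and 3 higher after siCHKA. Of 8 markers of other cell types, CD3E of T cells was at 0 in every sample, PTPRC of leukocytes and COL1A2 of fibroblasts were at 0.26 CPM or less, and PECAM1 had no matching identifier. The other 4 were low and were called, COL1A1 (11.4 to 30.0 CPM) and CD68 (2.39 to 5.97 CPM) higher and PDGFRB (0.686 to 4.47 CPM) and VWF (1.13 to 3.65 CPM) lower after siCHKA. The 7 found summed to 29.9 to 38.3 CPM in siCHKA and 21.8 to 28.8 CPM in siNT samples, and their part in the results was not tested. The share of uniquely aligned reads outside genes was 6.70 to 8.54% in siCHKA and 5.49 to 6.63% in siNT samples, and its part in the results was not tested.

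The cytosolic and mitochondrial synthetases divided unequally between lower and higher transcripts after CHKA knockdown. Of the 19 cytosolic members, 8 fell, 4 rose and 7 did not pass the test, with a median log2 fold change of -0.03. Of the 16 mitochondrial members, 1 fell, 9 rose and 6 did not pass, with a median of 0.15. These counts stand against a wide background, since edgeR's quasi-likelihood test with Benjamini-Hochberg adjustment called 30.1% of all genes lower and 32.1% higher, 62.2% in either direction, with a median log2 fold change of 0.03. The cytosolic share called lower was 42.1% and called higher 21.1%, while the mitochondrial shares were 6.25% and 56.3%. Most of the differences were small. The median absolute log2 fold change was 0.16 over the members and 0.31 over all genes, and 4 members were both called and past 1.5-fold, against 24.8% of all genes. Those 4 were IARS1, NARS1, LARS2 and MARS2. In bulk RNA, fewer cells with a transcript and less of it per cell cannot be told apart.

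**Figure D1:**
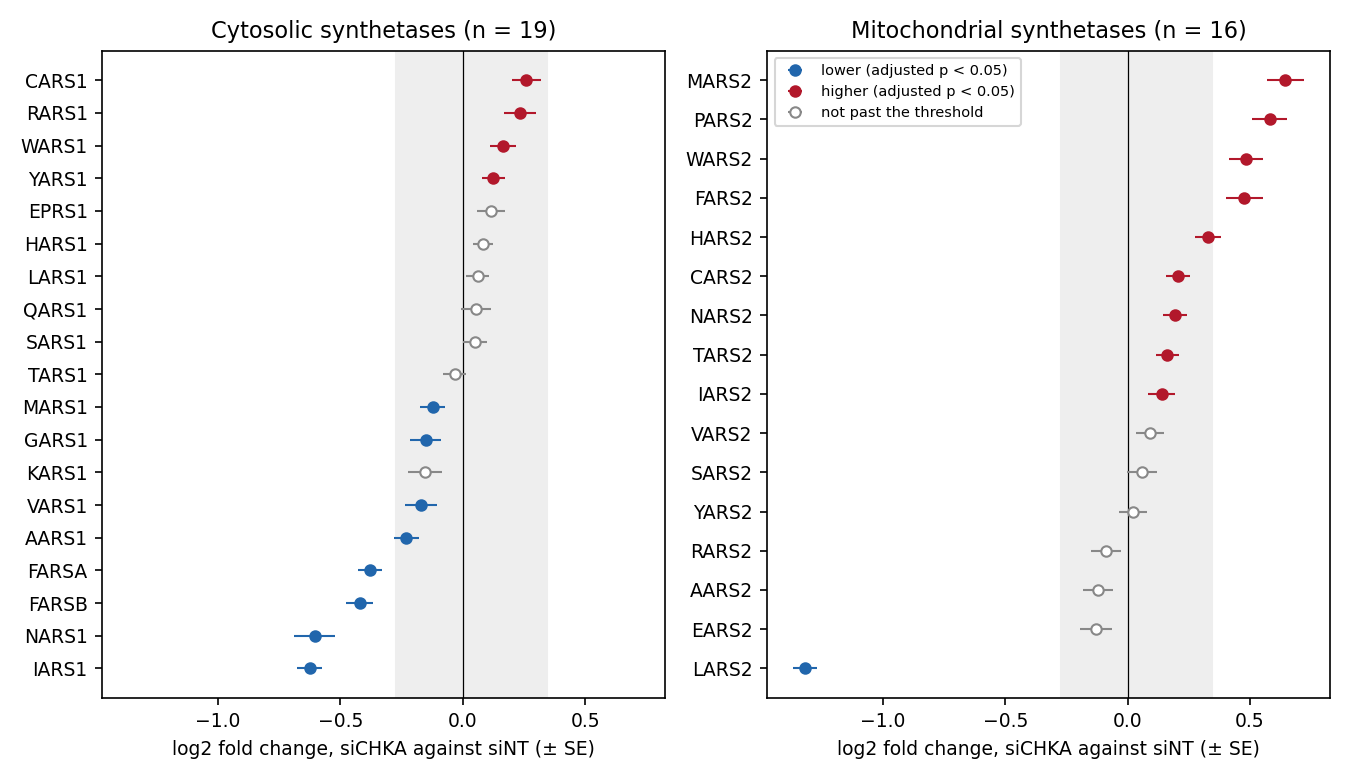
Log2 fold change of each synthetase gene, siCHKA over siNT, with its standard error, in panels for the 19 cytosolic and 16 mitochondrial members. Colours mark genes called lower, higher or not called, and the grey band spans the quartiles of all genes, -0.27 to 0.34. LARS2 stands at -1.32, below every other member, and the mitochondrial panel otherwise lies mostly to the right of 0.

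All 6 siCHKA samples lay below all 6 siNT samples in 5 cytosolic members (IARS1, NARS1, FARSB, FARSA and AARS1) and in LARS2, and such a separation was seen in 21.5% of all genes. In 7 mitochondrial members (MARS2, PARS2, WARS2, FARS2, HARS2, CARS2 and TARS2) and in no cytosolic member all siCHKA samples lay above, against 19.1% of all genes. In TARS2 the separation was very narrow, with the lowest siCHKA library at 74.32 CPM and the highest siNT library at 74.27 CPM. The TARS2 call was lost without siCHKA replicates 1, 3 and 5 (adjusted p = 0.0546).

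Among the cytosolic members the largest fall was in IARS1 (ENSG00000196305; chr9:92210207-92293854, GRCh38, minus strand), which charges isoleucine transfer RNA and belongs to the multisynthetase complex. IARS1 was at 456, 505 and 536 CPM (lowest, median and highest) in siCHKA and at 741, 774 and 806 CPM in siNT samples. The groups were far apart, and IARS1 fell by 0.63 on the log2 scale (SE 0.05, adjusted p = 1.49e-08). It was also near this size in each replicate set, at -0.56 without siCHKA replicates 1, 3 and 5 and at -0.70 without replicates 2, 4 and 6.

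NARS1, the asparagine enzyme (chr18:57600656-57622213, minus strand), was at 209, 251 and 297 CPM in siCHKA and 355, 384 and 412 CPM in siNT samples. It fell by 0.61 on the log2 scale (SE 0.08, adjusted p = 7.77e-06). Within siCHKA the replicate sets differed in level, with 226, 218 and 209 CPM in replicates 1, 3 and 5 and 297, 276 and 284 CPM in replicates 2, 4 and 6. Every siCHKA library nonetheless stayed below the lowest siNT library.

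The chains of phenylalanyl-tRNA synthetase moved side by side. FARSB (chr2:222566899-222656092, minus strand) was at 140.0, 147 and 162 CPM in siCHKA and 178, 197 and 220.0 CPM in siNT samples, and it fell by 0.42 on the log2 scale (SE 0.06, adjusted p = 5.18e-06). FARSA (chr19:12922479-12934037, minus strand) was at 139, 146 and 157 CPM in siCHKA and 176, 194 and 207 CPM in siNT samples, and it fell by 0.38 (SE 0.05, adjusted p = 4.93e-06). Neither pair of groups overlapped. The log2 ratio of FARSA to FARSB CPM ran from -0.20 to 0.10 in siCHKA and from -0.22 to 0.09 in siNT samples, ranges that nearly coincide.

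AARS1, which charges alanine transfer RNA, was at 394, 407 and 430 CPM in siCHKA and 446, 476 and 526 CPM in siNT samples and fell by 0.23 on the log2 scale (SE 0.05, adjusted p = 0.00114). The other 3 falls were close to the threshold. VARS1, the valine enzyme, was at 224, 248 and 294 CPM against 251, 292 and 296 CPM, overlapping groups, and fell by 0.17 (SE 0.07, adjusted p = 0.0329). GARS1, the glycine enzyme of both compartments, and MARS1, the methionine enzyme of the complex, fell by 0.15 and 0.12 on the log2 scale, with adjusted p of 0.0495 and 0.0438. Each of these 3 lost its call when single libraries were left out, with adjusted p up to 0.0784 for VARS1, 0.111 for GARS1 and 0.102 for MARS1. For VARS1 the log2 fold change was -0.06 (adjusted p = 0.480) without siCHKA replicates 2, 4 and 6. For MARS1 it was -0.06 (adjusted p = 0.349) without replicates 1, 3 and 5 and -0.19 (adjusted p = 0.00578) without replicates 2, 4 and 6, and GARS1 was not called with either set left out.

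**Figure D2:**
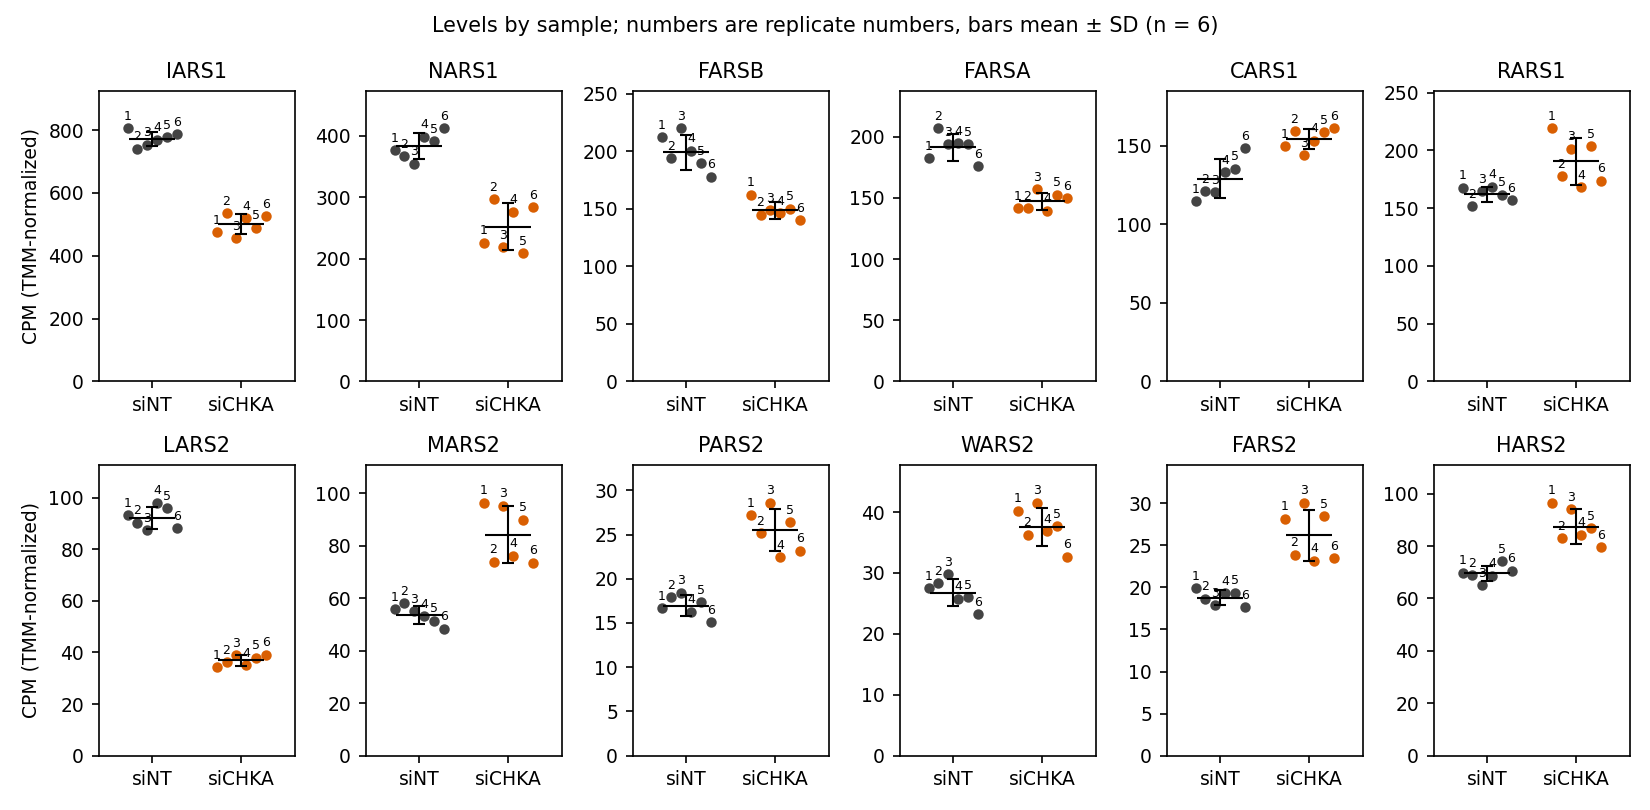
Level of 12 synthetase genes in CPM (vertical axis) in each siCHKA and siNT sample, drawn as its replicate number, with the mean and SD of each group of 6. The upper panels are cytosolic and the lower mitochondrial members. The groups do not overlap in IARS1, NARS1, FARSB and FARSA or in the 6 mitochondrial genes, and overlap in CARS1 and RARS1.

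The 4 cytosolic rises ran from 0.12 to 0.26 on the log2 scale. CARS1, which charges cysteine transfer RNA, was at 144, 156 and 161 CPM in siCHKA and 115, 127 and 148 CPM in siNT samples and rose by 0.26 on the log2 scale (SE 0.06, adjusted p = 0.00118), and the groups overlapped. RARS1, the arginine enzyme of the complex, was at 168, 189 and 219 CPM against 152, 163 and 169 CPM and rose by 0.23 (SE 0.06, adjusted p = 0.00433). That call rested on siCHKA replicates 1, 3 and 5, since without them the log2 fold change was 0.09 (adjusted p = 0.144). WARS1, the tryptophan enzyme, known also as an interferon-induced gene, was at 145, 157 and 175 CPM against 134, 142 and 150 CPM, rose by 0.17 (SE 0.05, adjusted p = 0.0113) and likewise reached only 0.08 (adjusted p = 0.197) without replicates 1, 3 and 5. YARS1, the tyrosine enzyme, was at 309, 324 and 341 CPM against 286, 294 and 326 CPM and rose by 0.12 (SE 0.05, adjusted p = 0.0323), a call lost at an adjusted p up to 0.105 with single libraries left out.

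EPRS1, HARS1, LARS1, QARS1, SARS1, TARS1 and KARS1 did not pass the test, with log2 fold changes from -0.15 in KARS1 to 0.11 in EPRS1. KARS1, the lysine enzyme of both compartments, was nearest, with an adjusted p of 0.0567. Without siCHKA replicates 1, 3 and 5 it was at -0.29 (adjusted p = 6.53e-04) and without replicates 2, 4 and 6 at -0.03. Of the 7 members of the multisynthetase complex, 2 fell (IARS1 and MARS1), 1 rose (RARS1) and 4 did not pass, with a median log2 fold change of 0.05. Of the 12 cytosolic members outside it, 6 fell and 3 rose, with a median of -0.09. The complex's scaffold genes AIMP1, AIMP2 and EEF1E1 did not pass the test, at -0.11, 0.02 and -0.13.

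The single mitochondrial fall was also the largest difference of any member. LARS2 (ENSG00000011376; chr3:45388561-45554726, GRCh38, plus strand) charges mitochondrial leucine transfer RNA. It was at 34.4, 37.1 and 39.2 CPM in siCHKA samples and at 87.3, 91.8 and 98.1 CPM in siNT samples. The highest siCHKA library was thus far below the lowest siNT library, and the siCHKA mean was 40.1% of the siNT mean. LARS2 fell by 1.32 on the log2 scale (SE 0.05, adjusted p = 8.75e-13), and 332 of the 14501 genes, 2.29%, had a lower log2 fold change. The replicate sets gave -1.33 and -1.31. Its cytosolic partner LARS1 did not pass the test, at 0.06.

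The largest rise was in MARS2 (chr2:197705369-197708395, plus strand), the methionine enzyme of mitochondria. MARS2 was at 73.4, 83.0 and 96.3 CPM in siCHKA and at 48.4, 54.1 and 58.1 CPM in siNT samples, and it rose by 0.65 on the log2 scale (SE 0.08, adjusted p = 1.31e-06). Replicates 1, 3 and 5 were higher, at 96.3, 95.2 and 89.9 CPM, than replicates 2, 4 and 6, at 73.9, 76.1 and 73.4 CPM, and each set lay above every siNT library.

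PARS2, the proline enzyme (chr1:54756898-54764523, minus strand), was at 22.5, 25.8 and 28.6 CPM in siCHKA and 15.1, 17.0 and 18.4 CPM in siNT samples, a rise of 0.58 (SE 0.07, adjusted p = 2.22e-06). For WARS2, which serves tryptophan, the values were 32.7, 37.3 and 41.5 CPM against 23.3, 26.8 and 29.8 CPM, a rise of 0.48 (SE 0.07, adjusted p = 1.12e-05). FARS2, which in mitochondria works as a single phenylalanine-charging chain, was at 23.2, 26.0 and 30.1 CPM against 17.6, 19.0 and 19.9 CPM, also a rise of 0.48 (SE 0.07, adjusted p = 3.12e-05). In none of these genes did the groups overlap. The FARS2 rise was 0.32 without siCHKA replicates 1, 3 and 5 and 0.62 without replicates 2, 4 and 6.

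HARS2, the histidine enzyme, was at 79.5, 85.6 and 96.6 CPM in siCHKA and 65.1, 69.3 and 74.2 CPM in siNT samples, a rise of 0.33 (SE 0.05, adjusted p = 5.10e-05). HARS2 (chr5:140691430-140699305, plus strand) and HARS1 (chr5:140673035-140691537, minus strand) overlap at their starts. Exon bases shared with any other annotated gene made up 6.99% of HARS2 (with ZMAT2 and HARS1). In HARS1 they made up 8.46% (with WDR55, DND1 and HARS2). Reads in shared bases were not counted for any of the genes sharing them if counting ignored strand. CARS2, the cysteine enzyme, was at 57.9, 59.1 and 63.6 CPM against 48.8, 51.6 and 57.1 CPM, and rose by 0.20 (adjusted p = 0.00146) with no overlap. NARS2, TARS2 and IARS2, for asparagine, threonine and isoleucine, had log2 fold changes of 0.19, 0.16 and 0.14 (adjusted p = 0.00230, 0.00537 and 0.0362). The IARS2 call was lost in 8 of the 12 fits that left out 1 library, with an adjusted p up to 0.121. AARS2, EARS2, RARS2, SARS2, VARS2 and YARS2 did not pass, with log2 fold changes from -0.13 to 0.09. EARS2, the glutamate enzyme, was at -0.28 (adjusted p = 4.47e-04) without siCHKA replicates 1, 3 and 5 and at 0.01 without replicates 2, 4 and 6.

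**Figure D3:**
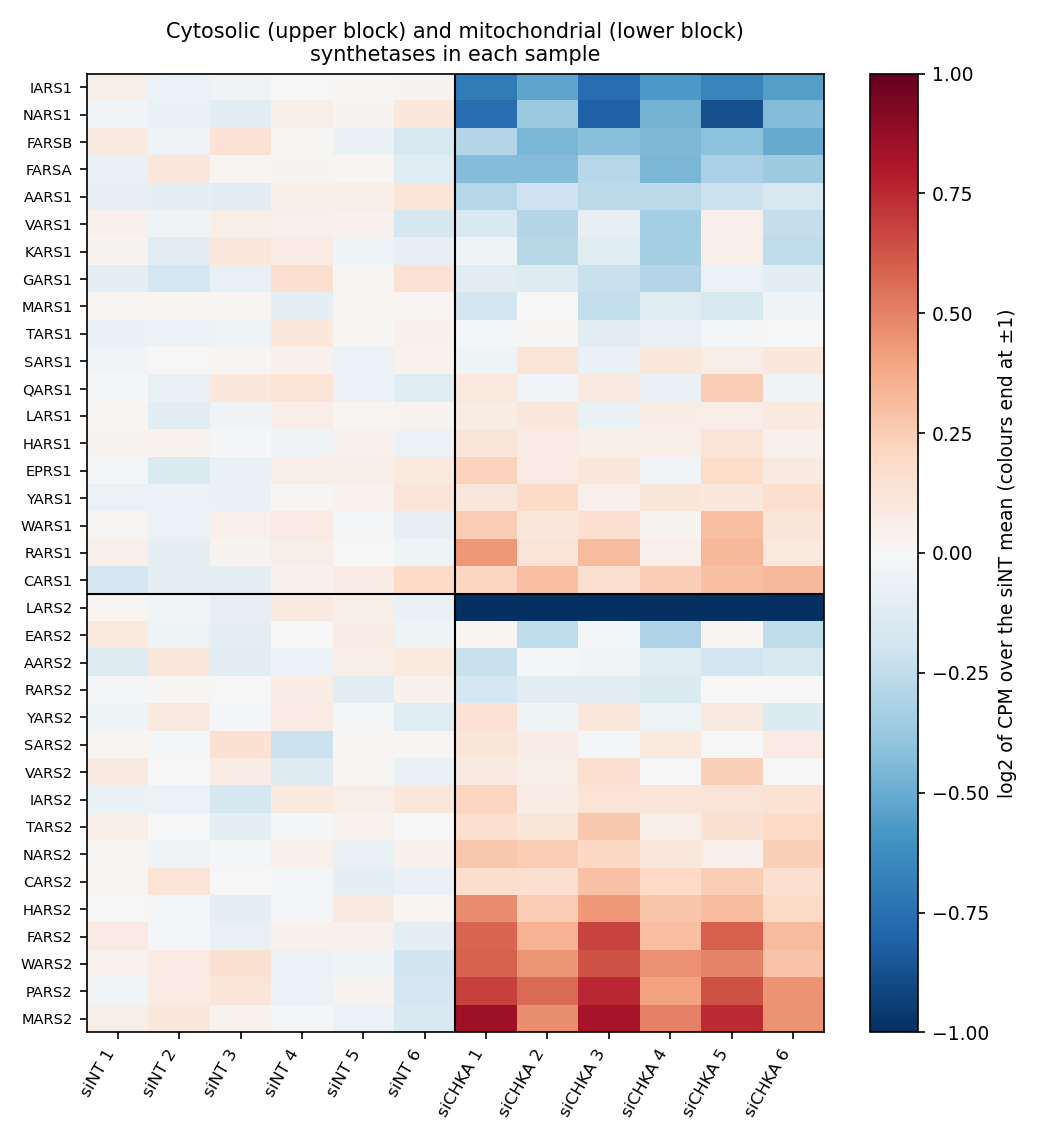
Log2 CPM of each of the 35 synthetase genes in the 12 samples, relative to the gene's mean in siNT samples, with cytosolic members in the upper block and the colour scale ending at 1 in either direction. LARS2, whose log2 fold change was -1.32, passes the end of the scale in siCHKA samples, and NARS1 and MARS2 differ between siCHKA replicates 1, 3 and 5 and replicates 2, 4 and 6.

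Levels between genes were compared per length, as mean CPM per kilobase of the canonical transcript in siNT samples. The cytosolic members ran from 29.4 (FARSB) to 174.5 (TARS1), with a median level of 114 CPM per kb. The mitochondrial members ran from 6.67 (RARS2) to 125 (IARS2), with a median level of 17.4 CPM per kb, and IARS2 was above the cytosolic median. The FARSB level was divided by a canonical transcript of 6761 bases. Summed over members, the cytosolic transcripts came to 5388 to 5738 CPM in siCHKA (mean 5579 ± 150 SD, n = 6) and 5810 to 6319 CPM in siNT samples (6096 ± 184). The mitochondrial sum was 1194 to 1310 CPM in siCHKA (1244 ± 51.8) and 1098 to 1191 CPM in siNT samples (1161 ± 35.02). The groups overlapped in neither sum, but abundant members weigh most in each. IARS2 had a mean of 487 CPM in siCHKA and 442 CPM in siNT samples. The means were 500 and 772 CPM for IARS1, and 252 and 383 CPM for NARS1. Against the direction of the sums, 4 cytosolic members were called higher and 1 mitochondrial member lower.

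For 13 amino acids the cytosolic and the mitochondrial enzyme have a gene each, and these partners were set side by side. The mitochondrial log2 fold change was the higher of the pair in 9 and the cytosolic in 4 (CARS, LARS, RARS and YARS), and the median of mitochondrial minus cytosolic was 0.20. The difference was largest for asparagine, at 0.80, followed by methionine and isoleucine, each at 0.77. In those, a called cytosolic fall met a called mitochondrial rise, though the MARS1 and IARS2 calls were lost when single libraries were left out. For isoleucine the log2 ratio of IARS2 to IARS1 CPM ran from -0.20 to 0.11 in siCHKA samples, and from -0.94 to -0.71 in siNT samples. Leucine stood at the other end, at -1.38, where the ratio of LARS2 to LARS1 ran from -3.38 to -3.05 in siCHKA and from -1.97 to -1.81 in siNT samples. These differences between partners were not tested.

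**Figure D4:**
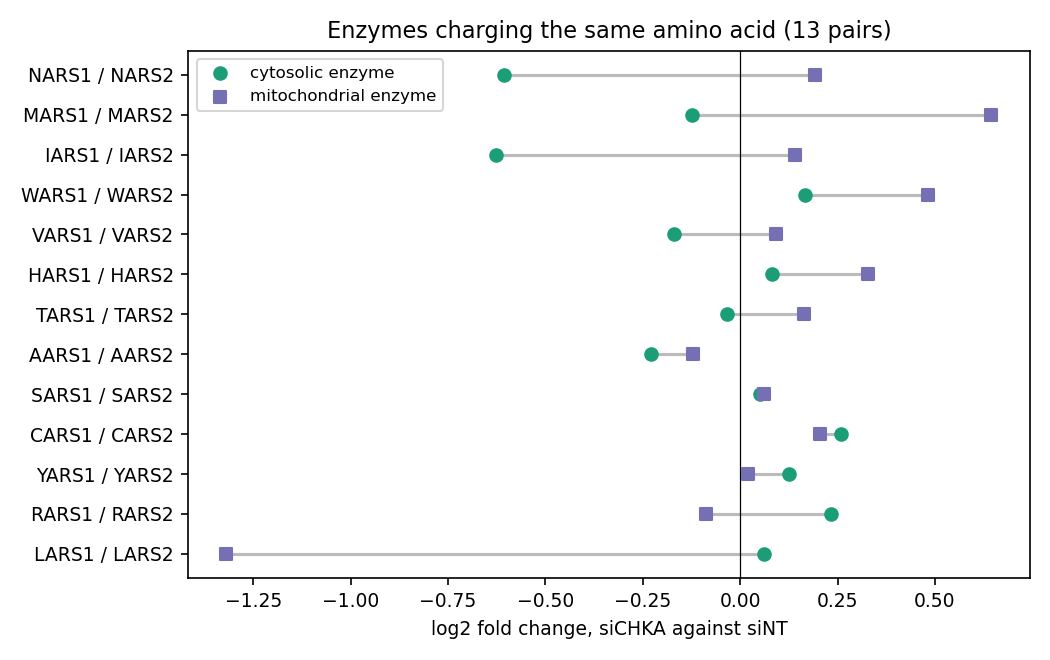
Log2 fold change, siCHKA over siNT, of the cytosolic and the mitochondrial synthetase for 13 amino acids, joined by a line for each pair. The mitochondrial point lies to the right in 9 pairs, and the leucine pair is widest, with LARS1 at 0.06 and LARS2 at -1.32.

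Among the cytosolic members with TGATGNAA in the promoter, 5 of 7 fell (IARS1, NARS1, AARS1, GARS1 and MARS1), CARS1 rose and TARS1 did not pass, with a median log2 fold change of -0.15, against 30.1% of all genes called lower. The GARS1 and MARS1 calls among them were lost in 11 and 13 of the 19 alternatives. Of the 9 in the promoter table without it, 2 fell (FARSA and FARSB), 2 rose (RARS1 and WARS1) and 5 did not pass, with a median of 0.05. AARS1, with its match far from the start, fell, and CARS1, with its match near the start, rose.

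The amino acid response was also followed through 12 genes outside the synthetases. Of these, 8 fell, none rose and 4 did not pass, with a median log2 fold change of -0.33, where 30.1% of all genes were called lower and 32.1% higher. ATF4 itself was at 202, 246 and 289 CPM in siCHKA and 370, 418 and 456 CPM in siNT samples and fell by 0.76 on the log2 scale (SE 0.09, adjusted p = 1.75e-06). SLC7A5, the light chain of a leucine transporter, fell by 0.53 (adjusted p = 1.03e-06) and TRIB3, a pseudokinase induced by ATF4, fell by 0.75 (adjusted p = 1.89e-05). SESN2, PHGDH, CHAC1, SLC7A11 and SLC3A2 fell as well, with log2 fold changes from -0.48 to -0.29.

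The 4 that did not pass were EIF2AK4, PSAT1, ASNS and DDIT3. ASNS, asparagine synthetase, was at 0.00 over all libraries, with 0.20 without siCHKA replicates 1, 3 and 5 (adjusted p = 0.00788) and -0.25 without replicates 2, 4 and 6 (adjusted p = 0.00292). DDIT3, a stress-induced transcription factor, likewise stood at 0.39 and -0.29. ATF4 was lower than siNT within each set, at -0.56 and -0.99. The groups overlapped in CHAC1 and SLC7A11, whose calls were lost without replicates 1, 3 and 5 (adjusted p = 0.216 and 0.222). The element was present in 3 of the 11 of these genes in the promoter table (ASNS, CHAC1 and SLC3A2).

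**Figure D5:**
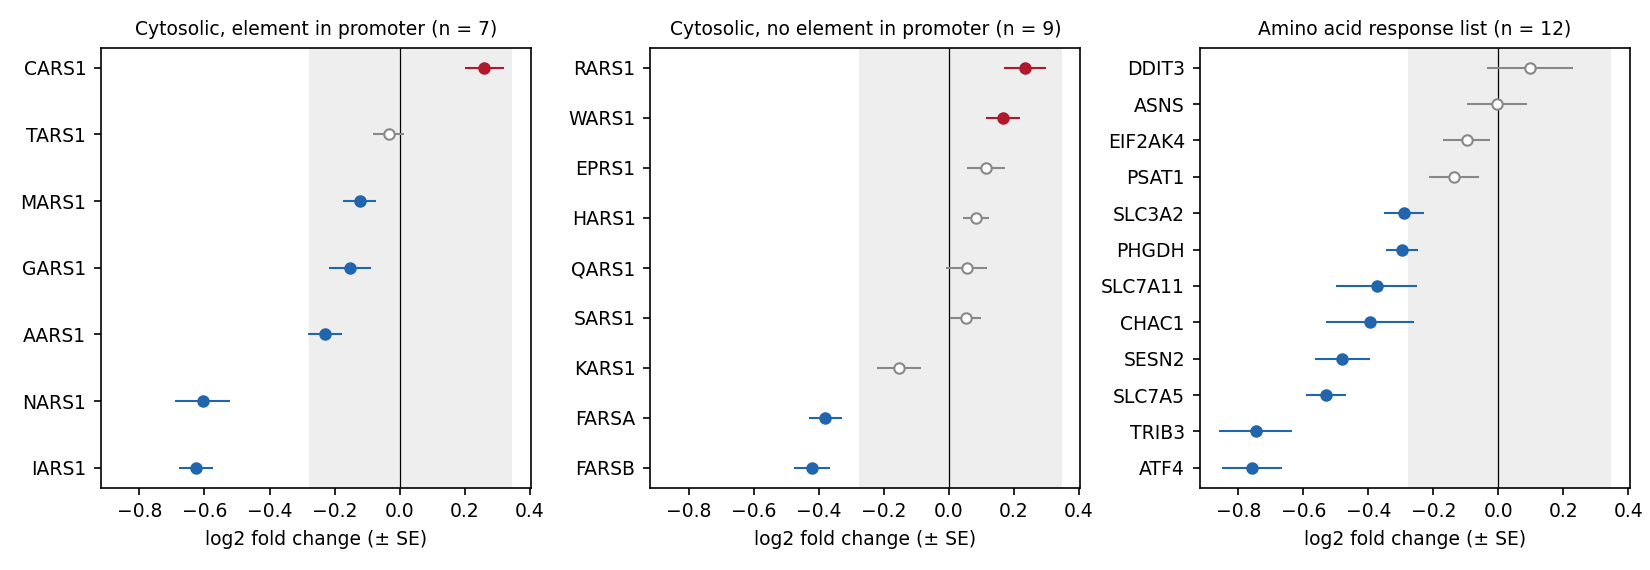
Log2 fold change, siCHKA over siNT, of cytosolic synthetase genes with TGATGNAA in the promoter (7 genes), of those without (9 genes) and of 12 genes of the amino acid response. Points are genes. The medians are -0.15, 0.05 and -0.33, and TRIB3 and ATF4 are the lowest points of the last panel.

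The other genes that handle transfer RNA moved in both directions. Of 4 genes that amidate or formylate mitochondrial aminoacyl-tRNA, GATB rose by 0.35 (adjusted p = 1.98e-05), GATC rose by 0.15 (adjusted p = 0.0232), QRSL1 fell by 0.15 (adjusted p = 0.0161) and MTFMT did not pass. The GATC and QRSL1 calls were each lost with siCHKA replicates 2, 4 and 6 left out (adjusted p = 0.0690 and 0.0846). The GATC call was also lost without replicates 1, 3 and 5 (adjusted p = 0.0611). DTD2, which removes wrongly joined amino acids from transfer RNA, was at 26.9, 30.6 and 33.8 CPM in siCHKA and 37.1, 48.9 and 51.4 CPM in siNT samples and fell by 0.61 (SE 0.08, adjusted p = 5.54e-06), without overlap, whereas DTD1 did not pass. Of 10 tested genes of transfer RNA export and maturation, 4 rose, 2 fell and 4 did not pass, near the 32.1% and 30.1% of all genes called higher and lower. TSEN34, of the intron-splicing endonuclease, and ELAC2, which trims 3′ ends, rose by 0.27 and 0.18, while the endonuclease genes TSEN54 and TSEN15 fell by 0.26 and 0.30. Without siCHKA replicates 1, 3 and 5 the ELAC2 and TSEN15 calls were lost, at 0.10 (adjusted p = 0.0810) and -0.12 (adjusted p = 0.114). The export receptor XPOT did not pass, at -0.12 (adjusted p = 0.0506). Of 8 tested elongation factors, EEF2 of the cytosol rose by 0.22, GFM1 and GFM2 of mitochondria fell by 0.20 and 0.19, and 5 did not pass. None of these 3 calls held in both replicate sets. Without siCHKA replicates 1, 3 and 5, EEF2 was at 0.09 (adjusted p = 0.241) and GFM2 at -0.09 (adjusted p = 0.302), and without replicates 2, 4 and 6, GFM1 was at -0.09 (adjusted p = 0.210). With 1 library left out the adjusted p reached 0.0630 for EEF2 and 0.0593 for GFM2. PRORP and EEF1G did not pass the expression filter, and AARSD1 had no matching identifier. EEF1G was at 0.048 to 0.215 CPM, while the elongation factors EEF1B2 and EEF1D were at 160 to 221 and 136 to 168 CPM. Whether the low EEF1G count reflects low expression was not tested.

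The words GCCAGAT and TGCCCTT, 7 bases each, were taken from earlier results of these data, and the 3′ UTRs of the synthetases were searched for them because transfected siRNAs can lower transcripts through short matches. The siRNA sequences are not given in the sources used here. A word was present in 23.6% of the 12296 tested genes with an annotated 3′ UTR, whose median log2 fold change was -0.12 against 0.04 for the rest, and whose 3′ UTRs were longer, at a median of 2931 against 993 bases. Since the words were chosen from these same data, that lower median is not an independent result. LARS2, IARS1, NARS1, FARSA and AARS1 held neither word, and other short matches were not searched. Their 3′ UTRs ran from 269 bases in FARSA to 1877 in LARS2, while that of FARSB, at 4972 bases, was the longest of any member. FARSB held GCCAGAT, in capitals in the 29 bases around it (GENCODE transcript, GRCh38, minus strand).
FARSB (chr2:222569067-222569095): gaggctctgcaGCCAGATcatcttacact
YARS2, which did not pass the test, was the other member with the word. A word match in FARSB was not tested for any part in its fall.

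In 16 of the 35 members some annotated exon bases are shared with another gene, and their counts are less sure for it. The share was 12.4% in MARS1 (with ARHGAP9 and DDIT3), 10.6% in WARS1, 4.48% in AARS2, 4.39% in WARS2, 4.35% in KARS1, 4.05% in YARS1, 3.20% in CARS2 and 3.06% in EARS2. It was 2.04% in CARS1 and 1.80% in GARS1. LARS2 shares 0.653%, and IARS1, NARS1 and FARSB share none.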

How the data were processed

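Total mRNA of 12 C4-2 samples was sequenced. According to the submitters' processing notes and the study's methods, reads (single-end, 40 bases) were mapped by the authors onto GRCh37 using TopHat2 2.0.4, then assigned to Ensembl genes using HTSeq 0.5.3p9. The deposited values are raw counts per gene, in 4 count files per sample, and whether counting used strand is not given in the sources used here. Reads shared by overlapping genes or near-identical copies were left out by such counting.

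The 4 files of a sample were summed and lines that name no gene, 33.9 to 39.0% of each total, were set aside. Symbols, GRCh38 coordinates and transcript lengths came from GENCODE release 44 by Ensembl identifier (82.8% of 54127 matched), and promoters (250 bases before to 50 after the start) from RefSeq. After filtering by filterByExpr and scaling by TMM, the groups were compared by the quasi-likelihood test of edgeR 4.0.16 (R 4.3.3), with group as the sole term, Benjamini-Hochberg adjustment over 14501 genes and a threshold of 0.05. The standard error is the absolute log2 fold change over the square root of F. CPM are counts scaled to the library size after TMM, log2 CPM uses a prior count of 2, and CPM per kb divides by the canonical transcript. Floors of 3 counts cover counting error only.

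The labels number 6 replicates a group. The study calls its CHKA knockdown samples biological replicates, 6 in one place and triplicates in another. The labels do not say which libraries, if any, share a culture. The p-values set each group difference against the spread between these libraries. If some libraries share a culture, the p-values would be too small for a difference between cultures. Alternatives were RLE normalization, DESeq2 1.42.0, no expression filter, a replicate block, leaving out each library or either siCHKA set, and the first count file alone. The members, gene lists, words and tests were chosen with earlier results of these data known. Values by group are printed for called members, up to the 6 largest falls and rises in each compartment, and of each other list for up to 3 genes a direction with the smallest p.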

Additional observations from a re-analysis of the deposited data

Results flagged for a closer look

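Of 70 groups of 6 samples examined, 35 genes in each of 2 groups, 2 held a sample far from the rest, where chance alone gives about 3.5. LARS1 was at 325 CPM in siCHKA replicate 3, and its gap to the nearest of the other samples, at 357 to 368 CPM, was 0.762 of the group's range on the log2 scale. MARS1 was at 299.7 CPM in siNT replicate 4 against 324 to 325 CPM in the others, a gap of 0.961 of the range. The critical value for 6 samples is 0.625. Without siNT replicate 4 the MARS1 fall kept its call.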

How the results depend on the processing

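Of the 22 members called, 13 kept their call and direction in all 19 alternatives: AARS1, CARS1, FARSA, FARSB, IARS1, NARS1, FARS2, HARS2, LARS2, MARS2, NARS2, PARS2 and WARS2. No called member reversed. The call was lost in 13 alternatives for MARS1, 12 for IARS2, 11 for GARS1, 9 for YARS1, 8 for VARS1, 3 for WARS1, 2 for TARS2, and 1 each for RARS1 and CARS2. Leaving out 1 library ended the call of VARS1 for siCHKA replicates 2, 4 and 6 and siNT replicates 1, 3, 4 and 5, of YARS1 for siCHKA 2 and 6 and siNT 1 to 4, of GARS1 for all but siCHKA 5 and siNT 1, 2 and 3, of MARS1 for all but siCHKA 2 and 6 and siNT 4, and of IARS2 for all but siCHKA 2 and siNT 4, 5 and 6. Cytosolic members called higher numbered 2 without the expression filter and 2 without siCHKA replicates 1, 3 and 5, and mitochondrial members called lower numbered 2 without the same replicates. With 1 library left out, 5 to 8 cytosolic members were lower (5 without siCHKA replicate 4 or siNT replicate 5) and 3 to 5 higher, and 1 to 2 mitochondrial members were lower (2 without siCHKA replicate 1 or 5 or siNT replicate 1 or 3) and 8 to 9 higher. Over all genes 4221 to 4402 were then lower and 4435 to 4596 higher, and the medians were -0.06 to -0.02 (cytosolic) and 0.12 to 0.16 (mitochondrial). The cytosolic median was 0.0018 with the first count file alone. The cause of these shifts was not tested.

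Log2 fold changes that changed sign were all of genes not called. YARS2 was at -0.0093 without the filter, at -0.0069 to 0.051 with 1 library left out (below 0 without siCHKA replicate 1 or siNT replicate 6) and at -0.085 without siCHKA replicates 1, 3 and 5. QARS1 was at -0.049 without the latter, SARS1 at -0.013 and EARS2 at 0.0087 without siCHKA replicates 2, 4 and 6, and TARS1 at 0.0018 and RARS2 at 0.10 with the first file alone.

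Same-numbered samples deviated together in 2 of 6 pairs (correlations -0.396 to 0.321), so the numbers were not taken as pairs. With the replicate block, 6 cytosolic members were lower and 3 higher, and 1 mitochondrial member was lower and 8 higher, with 4273 genes lower and 4494 higher over all. The depth, at least 10685184 reads, was ample for these genes, and the spread between libraries limits the small differences.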
